A study of Mus musculus with 49 samples.

Results

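Leukaemias that arose from short-term haematopoietic stem cells (STHSC:MA9, n = 3 mice) were compared with leukaemias that arose from granulocyte macrophage progenitors (GMP:MA9, n = 6 mice), gene by gene, in 9 of the 49 RNA-sequencing samples of the series. The genes compared were all 12094 of the 38253 genes in the table that averaged 1 FPKM or more across these 9 samples (fragments per kilobase of transcript, scaled to the size of the library), and 17390 genes were listed at 0 in all 9. The donor cells came from C57BL/6J mice of wild-type genotype aged 6 to 12 weeks. From lineage-depleted bone marrow, ST-HSCs were sorted as Sca-1+ c-Kit+ cells positive for CD150 and CD34, and GMPs as c-Kit+ cells without Sca-1 or CD150 that carried CD34 and the Fcγ receptor. Both were transduced with an MLL-AF9 (MA9) retrovirus that also carries a GFP reporter and were transplanted at once into sublethally irradiated recipients. Every leukaemia thus carries the same oncogene, and the groups were defined by the cell that received it. The study reports that the level of the MA9 transcript and survival also varied with the cell of origin. Sequencing depth differed between the groups as well, as given below. Each sample was bulk GFP+ leukaemia from 1 mouse. The study's methods describe a sort from the spleen, while the sample labels give bone marrow as the tissue, so the organ is uncertain. The retrovirus places MLL-AF9 under a viral promoter at random insertion sites, and the fusion transcript has no row of its own in the mouse gene table. The series also holds leukaemias of multipotent progenitor (MPP:MA9, n = 6) and common myeloid progenitor (CMP:MA9, n = 4) origin, and 30 normal samples of 6 stem and progenitor populations, among them 5 ST-HSC and 5 GMP samples.

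MLL-AF9 joins the amino-terminal part of the histone methyltransferase MLL to AF9, a component of the transcription elongation machinery, and the fusion keeps HOXA cluster genes and their cofactor Meis1 active in acute myeloid leukaemia. ST-HSCs can replenish all blood lineages for a limited time, whereas GMPs are committed to granulocytes and monocytes. The comparison asks which transcripts still differ once cells of such different potential have become MLL-AF9 leukaemias.

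All 9 samples expressed markers of MLL-AF9 myeloid leukaemia. Hoxa9 was at 14.5, 32.4 and 20.4 FPKM in STHSC:MA9 replicates 1 to 3, and at 12.5 to 41.4 (median 28.3) in GMP:MA9. Meis1 ranged from 36.2 to 81.5 and from 23.7 to 90.8 FPKM, and Itgam, the CD11b antigen of mature myeloid cells, from 249 to 285 and from 154 to 315. The groups overlapped for all 3 genes. The stem cell antigen Slamf1 (CD150), part of the ST-HSC gate, was at most 0.08 FPKM in any of the 9 leukaemias, against 4.79 to 15.8 in normal ST-HSCs.

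Several samples stood apart. STHSC:MA9 replicate 1 correlated with its group at r = 0.926 and 0.936 (Pearson, log2(FPKM + 1) across genes), against 0.970 between replicates 2 and 3, and with GMP:MA9 replicates 1, 4 and 6 at 0.943, 0.939 and 0.936. It held more of a 36-gene monocyte and macrophage list (summed 5749 FPKM, against 2175 and 2804) and of a 24-gene erythroid list (235 against 65.7 and 70.8). GMP:MA9 replicate 2 had a summed cytosolic ribosomal protein level of 24391 FPKM, the lowest of the 9, and mitochondrially encoded transcripts made up 34.5% of its summed FPKM, against 16.3% to 28.8% in the other 8 samples. Between 16053 and 17112 genes were above 0 per sample. Read totals are not known, but the steps between low FPKM values gave relative sequencing depths of 0.559 to 0.845 in STHSC:MA9 and 1.08 to 1.38 in GMP:MA9, so every leukaemia of ST-HSC origin was the shallower. With bulk samples, fewer cells of a type and less RNA per cell cannot be told apart.

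Of the 12094 genes, 66 differed between the leukaemias (0.546% of genes tested): 38 were higher in STHSC:MA9 (0.314%) and 28 were lower (0.232%). A gene was called here at an adjusted p below 0.05 (limma moderated test on log2(FPKM + 1), Benjamini-Hochberg over all 12094 genes) and a change beyond 1 on the log2 scale. All fold changes below are on that log2(FPKM + 1) scale, as STHSC:MA9 minus GMP:MA9 with the standard error (SE), and they understate changes of low genes. The median change over all genes was -0.01, and 48.7% of genes had a positive change. In 65 of the 66 called genes the samples of the groups did not overlap, which held for 1004 of all genes tested (8.3%). The exception was Bcap29, an endoplasmic reticulum protein. The call rests on few samples: leaving out STHSC:MA9 replicate 1 gave 200 called genes, leaving out replicate 2 gave 22, leaving out replicate 3 gave 26 and leaving out GMP:MA9 replicate 3 gave 41. Of the 66, 51, 21 and 24 remained without STHSC:MA9 replicates 1, 2 and 3, and 41 to 63 without a GMP:MA9 sample. Called whichever of the 9 samples was left out were 14 identifiers, of which 5 have a symbol: Etohi1, Gm14326, 1700112E06Rik, Anp32a and mt-Nd3. Kap, Gm4724 and Gm14420 were called in each of these fits in which they passed the level filter, and every other called gene named below lost its call in at least 1. Among the 14 identifiers, 8 carried the same values in these 9 samples, as given below, so they cannot be counted as separate genes. Over all alternatives, Thbs1 was called in 10 of 21, Ldhb in 11 and Tle2 in 7.

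**Figure D1:**
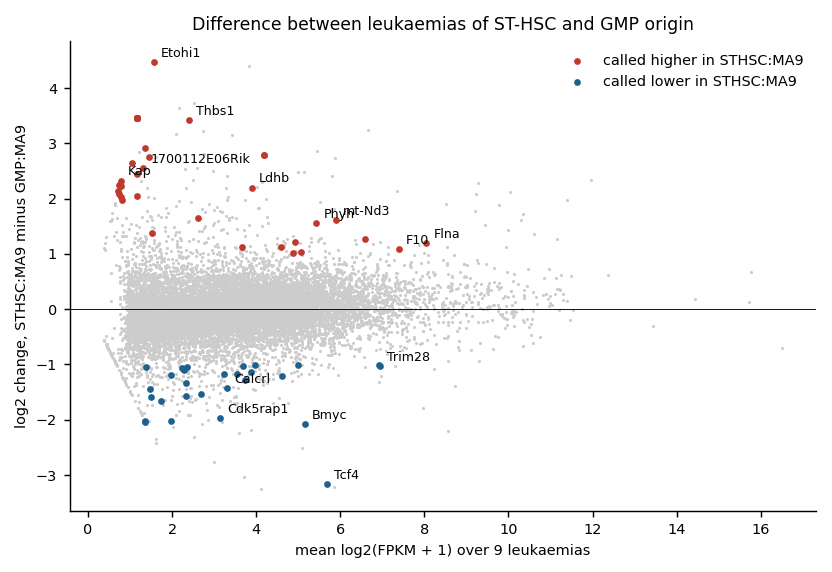
Each point is 1 of 12094 genes, with the mean log2(FPKM + 1) over the 9 leukaemias on the x axis and the log2 change of STHSC:MA9 minus GMP:MA9 on the y axis. Coloured points are the 38 genes called higher and the 28 called lower, and most called genes with large changes lie at low mean levels.

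Of the 66 called identifiers, 47 have a symbol and 19 do not. Among the 19, 8 identifiers carried the same values in the 9 leukaemias compared, 3.4, 18.99 and 13.99 FPKM in STHSC:MA9 and 0 in GMP:MA9, so they cannot be counted as separate genes, and 7 of them were identical in all 49 samples. Across the 49 samples, 9 called identifiers fell into 2 sets of identical values, and counting each set once left 59 of the 66. Of the 38 rises, 11 were listed at 0 in all GMP:MA9 samples and so passed the level filter through STHSC:MA9 alone. The same held for other rises with a GMP:MA9 mean below 1 FPKM, among them 1700112E06Rik, Gdf3 and G530011O06Rik. For all of these a rise was the direction the filter left. In the mirror case, Tle2 and Akr1e1 averaged below 1 FPKM in STHSC:MA9 and passed through GMP:MA9 alone. In a separate count, which may overlap these genes, 11 called genes share more than 20% of their 31-base windows with other transcripts. Their levels depend on how shared reads were assigned. The 19 identifiers without a symbol have no such value.

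A group of genes that were higher in STHSC:MA9 than in GMP:MA9 lies in a single stretch of chromosome 2. The stretch runs from 174887050 to 177813181 (NCBIM37, the build called mm9), in a cluster of C2H2 zinc finger genes. It holds 73 annotated genes, 38 protein coding and 35 pseudogenes. They were taken by position, and the family of each was not checked. Zinc finger proteins of this kind bind DNA, and many carry a KRAB domain that recruits the corepressor Trim28 to silence genes and retroelements. The stretch was singled out after its values were seen, so its values are a description. Of its 73 genes, 12 passed the level of 1 FPKM. In 11 of the 12 the GMP:MA9 mean was below 1 FPKM, so that they passed only through STHSC:MA9 and a rise was the direction the filter left. Of the 12, 6 were called higher: Etohi1, Gm14326, Gm4631, Gm4724, Gm14420 and Gm14410.

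Etohi1 (chromosome 2, 177757989 to 177768727, + strand) was the largest rise among all named genes. It was at 29.8, 21.7 and 16.9 FPKM in STHSC:MA9 replicates 1 to 3, and at 0 in 4 GMP:MA9 samples, 0.09 in replicate 3 and 0.22 in replicate 2. The lowest STHSC:MA9 sample lay far above every GMP:MA9 sample, with a change of 4.47 (SE 0.58, adjusted p = 0.000312). Leukaemias of MPP origin had 18.7 to 35.6 FPKM, and those of CMP origin ranged from 0 to 11.4.

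Gm14326 (177670698 to 177692002, - strand) was at 8.71, 11.5 and 6.94 FPKM in STHSC:MA9 and at 0 to 1.16 (median 0.135) in GMP:MA9, a change of 2.92 (SE 0.43, adjusted p = 0.00145). Gm4631 (175147456 to 175163698, - strand) was at 9.51, 10.3 and 6.89 FPKM, against 0.04 to 1.41 (median 0.455), a change of 2.76 (SE 0.46, adjusted p = 0.00531). Neither gene overlapped between the groups. Gm14420 and Gm14410 were lower, at 2.62 to 4.12 and 2.52 to 5.62 FPKM in STHSC:MA9 against at most 0.34 in GMP:MA9 for each, with changes of 2.02 (adjusted p = 0.000479) and 1.98 (adjusted p = 0.0171). Gm4724 was at 2.70, 5.48 and 2.58 FPKM and listed at 0 in all 6 GMP:MA9 samples (adjusted p = 0.00106). These genes resemble each other closely. A median of 93.5% of the 31-base windows of a gene in the stretch recur in another transcript, so the split of reads between members is uncertain, and the sum over the stretch depends less on it.

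Summed over the 73 genes, STHSC:MA9 replicates 1 to 3 had 107.7, 100.7 and 62.3 FPKM, and GMP:MA9 had 1.71 to 11.9 (median 5.59). The lowest STHSC:MA9 sum was thus above the highest GMP:MA9 sum, and 38 of the 73 genes were listed at 0 in all GMP:MA9 samples. MPP:MA9 had 95.7 to 145.8, near STHSC:MA9, and CMP:MA9 spread from 1.98 to 69.1. In normal cells the groups overlapped: ST-HSC samples had 167 to 309 FPKM, GMP samples had 198 to 237, and the other 4 populations lay between 106 and 279. The level in GMP:MA9 was therefore below that of every normal sample, those of its own cell of origin included. STHSC:MA9, at 62.3 to 107.7, was likewise below every normal ST-HSC sample, and its replicates 2 and 3 were below every normal sample. Of the 10 nearest tested genes on each side none was called, with changes from -0.57 to 0.58. Of 237 tested zinc finger genes elsewhere with a Zfp number none was called (median change -0.10, 84 positive). Neither set was picked by its values, as the stretch was, so these counts are not on the same footing as those of the stretch. At an unadjusted p below 0.05, 2304 of all 12094 genes passed.

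Trim28, the KRAB corepressor named above, was called lower, a gene picked out after its values were seen. It was at 61.3, 88.3 and 80.0 FPKM in STHSC:MA9 and at 117.5 to 200.5 (median 162) in GMP:MA9, a change of -1.03 (SE 0.17, adjusted p = 0.00521). All 3 STHSC:MA9 samples lay below all 6 GMP:MA9 samples. CMP:MA9, at 73.1 to 90.1 FPKM, was as low as STHSC:MA9. MPP:MA9, at 95.7 to 139.8 FPKM, was above every STHSC:MA9 sample and overlapped GMP:MA9. A link between Trim28 and the stretch was not tested.

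The promoters of most of the called zinc finger genes show how alike they are. Those of 4 of the 6 are printed below as the 250 bases before and 50 after the annotated start, from RefSeq on GRCm38.p6, a later build than that of the expression table. Of the other members, Gm14420 has no entry in the table used, and Gm4631 has several annotated starts. By the alignment described below, the promoter of 1 Gm4631 start matched that of Etohi1 at only 33.7%. Those of its other starts matched at 96.4% to 96.7%. Capitals mark CCAAT or its reverse complement ATTGG, searched on both strands and found in 37.4% of 32851 mouse promoters.
Etohi1 promoter, chr2:178023034-178023333, + strand: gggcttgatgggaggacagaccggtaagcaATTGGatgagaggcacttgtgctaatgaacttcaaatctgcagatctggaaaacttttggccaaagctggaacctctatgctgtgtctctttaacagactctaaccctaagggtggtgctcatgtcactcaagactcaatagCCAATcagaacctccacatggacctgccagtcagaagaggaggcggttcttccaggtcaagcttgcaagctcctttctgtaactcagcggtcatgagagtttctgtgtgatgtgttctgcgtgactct
Gm14326 promoter, chr2:177957239-177957538, - strand: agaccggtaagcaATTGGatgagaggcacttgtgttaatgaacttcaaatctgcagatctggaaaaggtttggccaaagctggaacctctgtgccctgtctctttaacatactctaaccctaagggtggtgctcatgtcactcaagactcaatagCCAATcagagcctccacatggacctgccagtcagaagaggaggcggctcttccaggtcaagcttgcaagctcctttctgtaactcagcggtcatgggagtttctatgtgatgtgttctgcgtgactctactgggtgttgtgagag
Gm4724 promoter, chr2:175435728-175436027, - strand: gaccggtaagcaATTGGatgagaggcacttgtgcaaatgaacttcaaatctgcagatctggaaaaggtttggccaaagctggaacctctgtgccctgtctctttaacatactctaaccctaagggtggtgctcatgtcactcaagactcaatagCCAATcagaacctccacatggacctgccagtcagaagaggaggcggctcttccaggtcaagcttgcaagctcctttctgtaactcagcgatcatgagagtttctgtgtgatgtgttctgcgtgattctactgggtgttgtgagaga
Gm14410 promoter, chr2:177206447-177206746, - strand: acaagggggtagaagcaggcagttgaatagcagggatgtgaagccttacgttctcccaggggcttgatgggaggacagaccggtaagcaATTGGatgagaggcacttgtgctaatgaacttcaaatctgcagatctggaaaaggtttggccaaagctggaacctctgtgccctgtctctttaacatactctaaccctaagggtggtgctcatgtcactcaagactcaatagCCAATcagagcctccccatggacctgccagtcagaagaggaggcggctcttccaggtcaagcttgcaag

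Aligned without gaps at the best offset of up to 100 bases, the Etohi1 promoter was identical to that of Gm14326 at 96.1% of 283 bases, to that of Gm4724 at 96.5% of 282 bases and to that of Gm14410 at 96.3% of 241 bases. Gm14326 matched Gm14410 at 99.1% of 224 bases and Gm4724 at 97.7% of 299 bases, and Gm4724 matched Gm14410 at 98.7% of 223 bases. Each holds 2 matches to the motif, one in each orientation, and 3 or 4 CpG pairs. A match here is a run of letters and not evidence of binding.

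**Figure D2:**
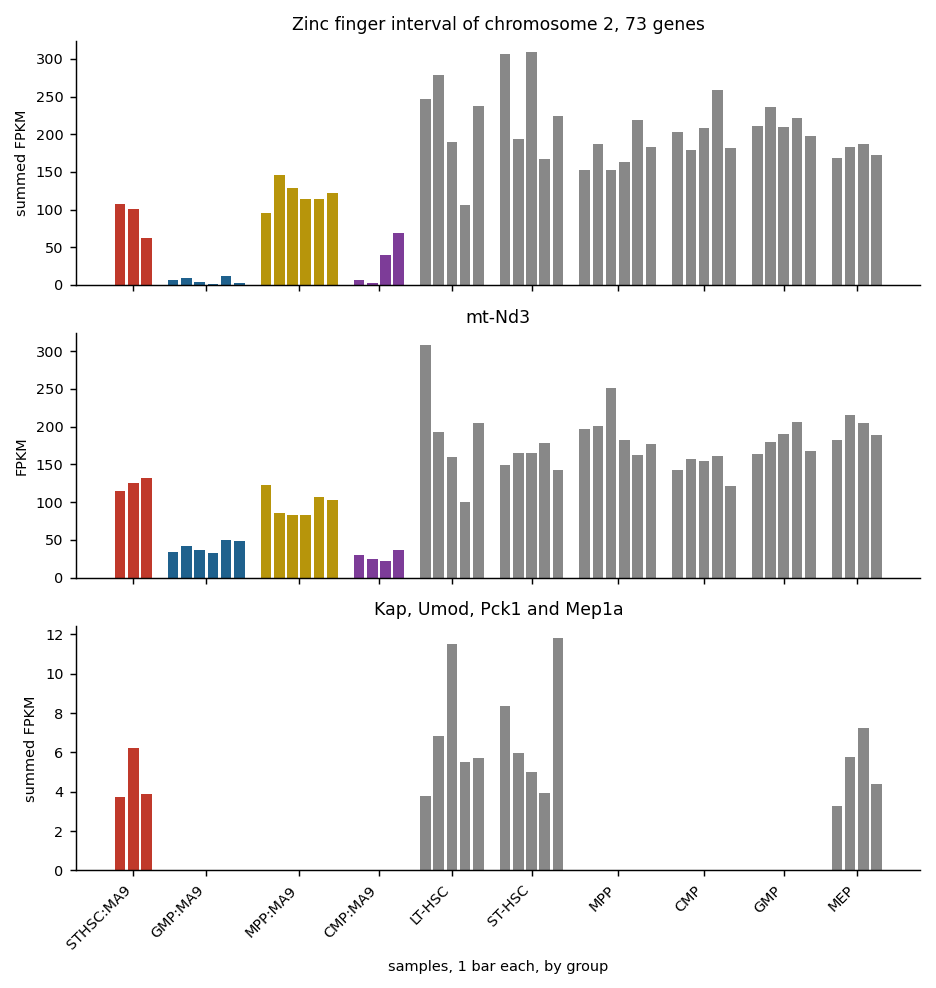
Each bar is 1 of 49 samples, by group on the x axis. The y axes give summed FPKM of the 73 genes of the zinc finger stretch of chromosome 2, FPKM of mt-Nd3 and summed FPKM of Kap, Umod, Pck1 and Mep1a. The zinc finger sum was at most 11.9 in GMP:MA9 and at least 62.3 in STHSC:MA9, mt-Nd3 separated the same groups, and the 4 kidney genes were above 0 in LT-HSC, ST-HSC, MEP and STHSC:MA9 alone.

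1700112E06Rik on chromosome 14 (22838934 to 23875307, + strand), a gene with no assigned function, was high in the same leukaemias. It was at 5.30, 8.37 and 7.83 FPKM in STHSC:MA9 and at 0.18 to 0.55 (median 0.38) in GMP:MA9, a change of 2.55 (SE 0.26, adjusted p = 1.12e-05) with no overlap. MPP:MA9 was again near STHSC:MA9 (5.67 to 12.4 FPKM) and CMP:MA9 near GMP:MA9 (0.15 to 1.85).

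The mitochondrial gene mt-Nd3, which encodes a subunit of respiratory complex I, showed the same order of groups. It was at 114, 126 and 132 FPKM in STHSC:MA9 and at 32.4 to 49.6 (median 39.4) in GMP:MA9, a change of 1.60 (SE 0.17, adjusted p = 2.03e-05). MPP:MA9 had 82.5 to 123 FPKM, above every GMP:MA9 sample, and CMP:MA9 had 22.3 to 36.1, below every STHSC:MA9 sample. No other mitochondrially encoded gene was called: of 15 tested, 4 changes were positive and 11 negative, with a median of -0.30. The rise of mt-Nd3 thus went against the direction of most genes transcribed with it.

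Thbs1, which encodes the matrix glycoprotein thrombospondin 1 that platelets release and that restrains angiogenesis, was at 15.4, 31.03 and 31.5 FPKM in STHSC:MA9 and at 0.21 to 4.31 (median 1.16) in GMP:MA9. Every STHSC:MA9 sample was higher than every GMP:MA9 sample (change 3.42, SE 0.80, adjusted p = 0.0447). F10, coagulation factor X, was at 302, 265 and 261 FPKM, against 77.9 to 166 (median 138), a change of 1.08 (SE 0.20, adjusted p = 0.0123). Both belong to a list of matrix, protease and angiogenesis genes, of which 2 of 29 tested were called higher, none lower, with a median change of 0.35.

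Acvrl1, the type I receptor ALK1 of the TGF-β family, was at 6.14, 12.5 and 21.6 FPKM in STHSC:MA9 and at 2.16 to 5.50 (median 3.11) in GMP:MA9 (change 1.64, SE 0.37, adjusted p = 0.0387). Gdf3, a ligand of the same family, was at 4.2, 4.04 and 2.14 FPKM, against at most 0.07 (change 2.09, SE 0.49, adjusted p = 0.044). Neither gene overlapped between the groups, but both were named for the size of their change. Acvrl1 was called in 11 of 21 alternatives and Gdf3 in 9 of 19. Whether Gdf3 acts through this receptor was not tested. Wnk4, a kinase best known for control of salt transport in the kidney tubule, was at 10.5 and 10.1 FPKM in STHSC:MA9 replicates 2 and 3 and only 1.58 in replicate 1, against 0.03 to 0.91 in GMP:MA9 (change 2.44, SE 0.56, adjusted p = 0.0399). G530011O06Rik, an X-linked transcript of which 46.0% of windows are shared, was at 6.86, 3.53 and 4.45 FPKM against 0.13 to 0.76 (change 2.05, SE 0.38, adjusted p = 0.0123).

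Among metabolic genes, Ldhb encodes the lactate dehydrogenase subunit that favours conversion of lactate to pyruvate. It was at 32.9, 41.6 and 47.0 FPKM in STHSC:MA9 and at 2.80 to 17.5 (median 8.41) in GMP:MA9, a change of 2.20 (SE 0.49, adjusted p = 0.0373). MPP:MA9 reached 24.3 FPKM and CMP:MA9 17.7, so STHSC:MA9 was above every leukaemia of the other 3 origins. Ldhb was the 1 called gene among 26 tested of glycolysis and lactate metabolism, of which 21 changes were positive (median 0.20). Pkm2, the pyruvate kinase M gene, was at 278 to 409 FPKM against 140 to 238 and did not pass (change 0.83, adjusted p = 0.0686).

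Phyh, the peroxisomal phytanoyl-CoA hydroxylase that starts breakdown of branched-chain fatty acids, was at 57.5, 128 and 90.6 FPKM in STHSC:MA9 and at 14.9 to 42.8 (median 32.5) in GMP:MA9 (change 1.56, SE 0.31, adjusted p = 0.0171). It was the 1 called gene of 29 tested in lipid and eicosanoid metabolism (21 positive, median 0.21). The aldehyde dehydrogenases Aldh2 and Aldh3b1, picked out after their values were seen, were called higher too. Aldh2 was at 47.5 to 64.0 FPKM against 15.7 to 33.6 (change 1.03, adjusted p = 0.023), and Aldh3b1 at 33.0 to 46.1 against 12.4 to 23.7 (change 1.12, adjusted p = 0.00943). Both sets of samples were fully separated.

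Of the complexes that MLL-AF9 works through, Leo1, a subunit of the PAF1 elongation complex that binds MLL, was called higher. It was at 14.4, 24.7 and 23.5 FPKM in STHSC:MA9 and at 6.52 to 12.8 (median 8.13) in GMP:MA9 (change 1.12, SE 0.22, adjusted p = 0.0171). It was the 1 called gene of 21 tested in the list of MLL partners, where 7 changes were positive and 14 negative (median -0.17). Ccnt1, the cyclin of the elongation kinase P-TEFb, was at 55.5 to 74.9 FPKM against 35.1 to 53.2 and did not pass (change 0.52, adjusted p = 0.0551). The genes that contribute to the fusion did not pass either. Mll1 was at 49.9 to 113 FPKM in STHSC:MA9 and 52.3 to 238 in GMP:MA9 (change -0.17, adjusted p = 0.868), and Mllt3, which encodes AF9, at 23.1 to 86.9 and 41.5 to 275 (change -0.44, adjusted p = 0.724). The top value of each was in GMP:MA9 replicate 2. Leaving out that sample, or STHSC:MA9 replicate 1, turned the sign of the Mll1 change, to 0.12 and 0.13, and leaving out STHSC:MA9 replicate 1 turned that of Mllt3 to 0.10.

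Other genes called higher included Anp32a, an acidic nuclear protein that acts as a histone chaperone, and Flna, filamin A, which crosslinks actin. Both were picked out after their values were seen. Anp32a was at 150, 171 and 204 FPKM in STHSC:MA9 and at 56.4 to 97.1 (median 65.8) in GMP:MA9 (change 1.28, SE 0.19, adjusted p = 0.00174). Flna was at 630, 340 and 448 FPKM against 138 to 292 (change 1.19, SE 0.25, adjusted p = 0.0256). Neither overlapped between groups. Fli1, an ETS factor of stem cells and megakaryocytes, had a change of 0.82 (SE 0.12, adjusted p = 0.00162), below the fold needed for a call, at 77.5 to 88.6 FPKM against 42.4 to 54.7.

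**Figure D3:**
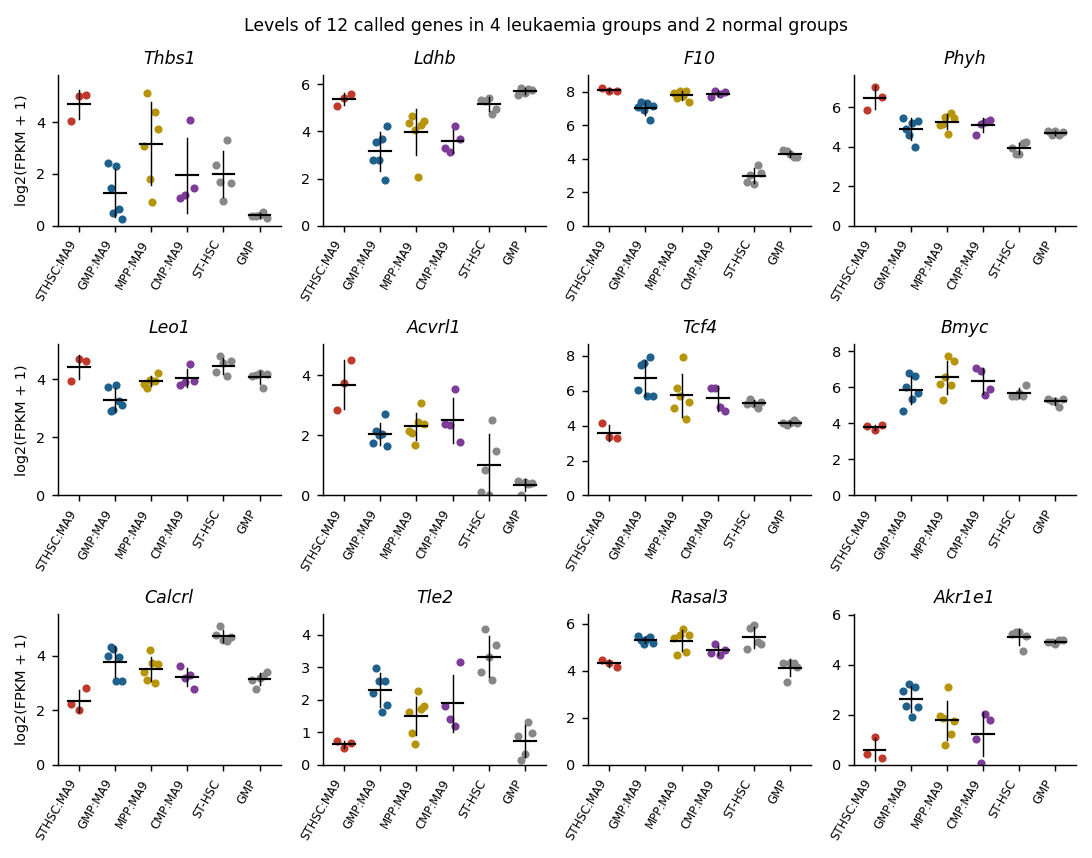
Each panel shows log2(FPKM + 1) of 1 called gene in the 4 leukaemia groups and in normal ST-HSC and GMP samples, 1 point a sample, with the mean as a bar and 1 SD as a line. Thbs1, Ldhb, F10, Phyh, Leo1 and Acvrl1 were higher in STHSC:MA9 than in GMP:MA9, and Tcf4, Bmyc, Calcrl, Tle2, Rasal3 and Akr1e1 were lower.

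The largest fall was Tcf4 (E2-2), the E protein that directs plasmacytoid dendritic cell development. It was at 16.5, 9.03 and 8.67 FPKM in STHSC:MA9 and at 50.3 to 245 (median 122) in GMP:MA9, a change of -3.17 (SE 0.64, adjusted p = 0.0182). STHSC:MA9 was also below all CMP:MA9 samples (27.6 to 71.6) and all MPP:MA9 samples (19.5 to 244). In normal cells the order was the opposite, with 31.6 to 45.4 FPKM in ST-HSCs and 15.4 to 19.2 in GMPs. Relative to the cell it started from, Tcf4 was thus lower in the leukaemias of ST-HSC origin and higher in those of GMP origin.

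Calcrl, the receptor for the peptides CGRP and adrenomedullin, was at 3.67, 3.06 and 5.94 FPKM in STHSC:MA9 and at 7.36 to 18.7 (median 14.8) in GMP:MA9 (change -1.42, SE 0.31, adjusted p = 0.0288). Tle2, a Groucho-type corepressor, was at 0.65, 0.42 and 0.59 FPKM against 2.08 to 6.84 (median 4.28; change -1.66, SE 0.40, adjusted p = 0.0472). Both were far higher in normal ST-HSCs than in normal GMPs, Calcrl at 22.1 to 32.4 against 5.86 to 9.51 FPKM and Tle2 at 5.02 to 17.1 against 0.12 to 1.5. Rasal3, a GTPase activator that turns off Ras, was at 21.3, 19.1 and 16.9 FPKM against 34.5 to 44.4 (median 39.4; change -1.005, SE 0.20, adjusted p = 0.0177), and Atp13a2, a lysosomal transport ATPase, at 18.6, 12.1 and 9.69 against 24.5 to 41.6 (median 29.2; change -1.21, SE 0.24, adjusted p = 0.018). The groups were separate for all 4 genes.

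Bmyc, a relative of Myc that lacks its DNA-binding domain, was at 13.2, 11.2 and 13.7 FPKM in STHSC:MA9 and at 24.8 to 109 (median 56.2) in GMP:MA9 (change -2.08, SE 0.50, adjusted p = 0.0472), and 55.3% of its windows are shared. Cdk5rap1, which modifies mitochondrial transfer RNAs, was at 2.59, 2.74 and 2.23 FPKM against 9.78 to 15.6 (median 14.1; change -1.98, SE 0.34, adjusted p = 0.00668). MPP:MA9 was as low as STHSC:MA9 for Cdk5rap1, at 0.84 to 4.53 FPKM. Akr1e1, an aldo-keto reductase, was at 0.34, 1.19 and 0.22 FPKM against 2.82 to 8.32 (change -2.03, SE 0.45, adjusted p = 0.035). Lrrc8c, a subunit of the volume-regulated anion channel, was at 9.34, 6.35 and 4.27 FPKM against 11.4 to 24.1 (change -1.28, SE 0.27, adjusted p = 0.0264).

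The remaining large falls were at low levels. Gm15036, Gm15186, Gm16091 and Gm14734, which have no assigned function, were at most 2.81 FPKM in STHSC:MA9 and at least 1.27 in GMP:MA9, with changes of -1.59, -1.45, -1.33 and -1.19 (adjusted p = 0.0494, 0.0336, 0.0178 and 0.0255). Of Gm14734, 87.5% of windows are shared. Galnt2, an enzyme that starts mucin-type O-glycans, fell by 1.57 (adjusted p = 0.0472), but 90.2% of its windows recur elsewhere. A chromosome 14 copy of 7SK, the small RNA that holds P-TEFb inactive, was listed at 0 in all 3 STHSC:MA9 samples and at 1.52 to 6.10 FPKM in GMP:MA9 (adjusted p = 0.0377). Also called lower, and picked out after their values were seen, were Fgd2, an activator of Cdc42 (change -1.14, adjusted p = 0.0177), and Limk1, the kinase of cofilin (change -1.04, adjusted p = 0.0413).

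Genes of granulocyte maturation leaned one way without any of them passing. Of the secondary granule and neutrophil list, 25 of 25 changes were positive, with a median of 1.64 beside -0.01 for all genes. None was called, and 4 did not overlap between groups, beside 8.3% of all genes tested. At an unadjusted limma p below 0.05, 6 passed. Over all genes 2304 of 12094 did, the share to set beside such counts in this and the following lists. The antibacterial proteins made late in neutrophil maturation included Ltf, lactoferrin, at 123, 102 and 344 FPKM in STHSC:MA9 and 5.13 to 65.7 (median 21.3) in GMP:MA9 (change 2.86, SE 1.13, adjusted p = 0.185). S100a9 was at 7716, 9252 and 23030 FPKM against 531 to 5667 (change 2.34, SE 1.15, adjusted p = 0.273). Neither overlapped between these groups, but MPP:MA9 spanned 303 to 17584 FPKM for S100a9, and the spread within the other groups enters the error. Retnlg overlapped, at 259 to 637 FPKM against 12.5 to 377 (change 3.23, SE 1.14, adjusted p = 0.15). Of 15 primary granule genes, 14 changes were positive (median 0.92), none was called and 3 passed at an unadjusted p below 0.05, near the share over all genes. Elane, neutrophil elastase, was at 326 to 1637 FPKM against 33.5 to 832 (change 1.90, adjusted p = 0.267).

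Antigen presentation leaned the other way, again without calls. MHC class II molecules present peptides to CD4+ T cells and are made by dendritic cells, B cells and some macrophages. All 9 tested members of the class II list had negative changes (median -1.57), none was called and 6 passed at an unadjusted p below 0.05. H2-Eb1 was at 0.53, 1.74 and 1.65 FPKM in STHSC:MA9 and at 2.00 to 59.9 (median 21.7) in GMP:MA9 (change -2.77, SE 0.89, adjusted p = 0.123). H2-Aa was at 4.63, 15.4 and 12.2 FPKM against 8.03 to 302 (median 103; change -2.52, SE 0.94, adjusted p = 0.165), and Cd74, the invariant chain, at 9.44, 17.1 and 10.98 against 13 to 473 (change -3.21, SE 0.96, adjusted p = 0.0988). H2-Eb1 did not overlap, whereas GMP:MA9 replicate 1 lay within the range of STHSC:MA9 for H2-Aa and Cd74, and replicate 4 for H2-Aa. Summed over the list, STHSC:MA9 had 127, 148 and 155 FPKM and GMP:MA9 175 to 1181. In normal cells 4 members were called higher in ST-HSCs than in GMPs and none lower.

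The promoters of the class II genes are known for a conserved box with a CCAAT core, so those of an α and a β chain gene are shown. CCAAT or ATTGG, in capitals, was found in 8 of 8 class II genes with a promoter sequence, beside 37.4% of all promoters and 41.1% of all genes with one.
H2-Aa promoter, chr17:34287774-34288073, - strand: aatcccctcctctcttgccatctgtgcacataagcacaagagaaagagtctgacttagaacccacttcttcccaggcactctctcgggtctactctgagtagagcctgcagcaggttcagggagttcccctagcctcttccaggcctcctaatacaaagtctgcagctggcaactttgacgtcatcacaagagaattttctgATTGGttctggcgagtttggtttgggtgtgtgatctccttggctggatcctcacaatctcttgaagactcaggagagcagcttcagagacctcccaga
H2-Eb1 promoter, chr17:34305617-34305916, + strand: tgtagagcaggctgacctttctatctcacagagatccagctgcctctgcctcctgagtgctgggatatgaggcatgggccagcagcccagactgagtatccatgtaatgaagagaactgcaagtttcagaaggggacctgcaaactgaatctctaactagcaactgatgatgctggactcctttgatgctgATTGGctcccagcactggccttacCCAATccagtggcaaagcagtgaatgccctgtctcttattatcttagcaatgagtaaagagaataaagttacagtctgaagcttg

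Of 15 tested genes of MHC class I and peptide loading, 10 changes were negative and 5 positive (median -0.45), with none called. Nlrc5, the class I transactivator, was at 1.63 to 2.06 FPKM against 2.52 to 7.64, without overlap (change -0.98, SE 0.25, adjusted p = 0.0634). The list of 23 tested interferon-induced genes had a median change of 0.05, 13 positive, and none was called. The core of the interferon-stimulated response element, searched on both strands as GAAA, any 2 bases and GAAA, was found in 16 of 25 genes of that list with a promoter, against 3.44% of all promoters and 3.99% of all genes with one.

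Markers of dendritic cells, which a GFP+ sort could include, leaned the same way as class II. All 10 tested conventional dendritic cell genes had negative changes (median -1.14), with none called and 5 at an unadjusted p below 0.05. Cd209a, the DC-SIGN antigen, was at 0.30 to 5.35 FPKM in STHSC:MA9 and 3.44 to 97.2 in GMP:MA9 (change -3.03, adjusted p = 0.0968). Of 10 plasmacytoid dendritic cell genes 7 changes were negative (median -1.03) and Tcf4 alone was called. Siglech, the defining surface marker of that cell, was at 0 to 0.51 FPKM in STHSC:MA9 and at 0.06 to 20.6 in GMP:MA9, with a median of 0.975. The summed plasmacytoid list was 142 to 180 FPKM in STHSC:MA9 and 209 to 557 in GMP:MA9. That sum includes Tcf4 itself, at 8.67 to 16.5 FPKM in STHSC:MA9 and 50.3 to 245 in GMP:MA9. It is therefore no separate measure beside Tcf4, and the part of such cells in the Tcf4 difference was not tested.

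In the marker lists of other cell types, Thbs1 alone was called, as one of 11 tested megakaryocyte and platelet genes (median -0.03). The tested counts and median changes were 4 and -0.75 for B cells, 3 and -0.999 for T and NK cells, 7 and 0.46 for erythroid cells, 13 and -0.43 for mast cells, basophils and eosinophils, and 4 and -0.89 for spleen stroma. Summed T and NK cell markers were 6.13 to 17.3 FPKM in STHSC:MA9 and 7.29 to 25.2 in GMP:MA9. Of 29 monocyte and macrophage genes 21 changes were negative (median -0.39, none called).

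**Figure D4:**
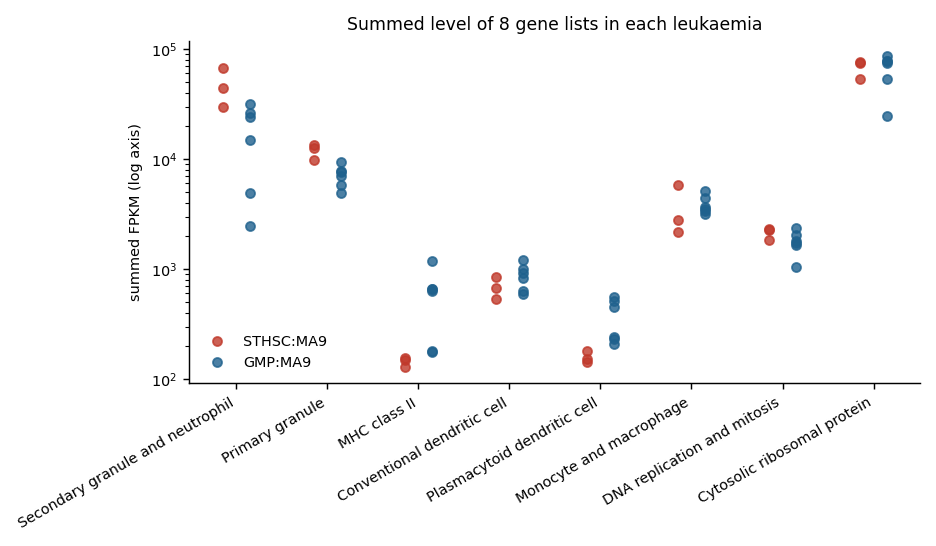
Summed FPKM of 8 gene lists on a log axis, with 1 point for each leukaemia of ST-HSC and GMP origin. Secondary granule genes summed to 29768 to 67364 in STHSC:MA9 and 2447 to 31705 in GMP:MA9, and MHC class II genes to 127 to 155 and 175 to 1181.

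No stem cell regulator passed the test between the leukaemias. Of 18 tested stem cell regulators 9 changes were positive and 9 negative (median 0.06), with none called and 4 at an unadjusted p below 0.05, whereas 11 of them were called higher in normal ST-HSCs than in normal GMPs and none lower. Mecom, which encodes the zinc finger factor EVI1, was at 11.9, 32.2 and 31.9 FPKM in STHSC:MA9 and at 0 to 0.99 in 5 GMP:MA9 samples, but at 25.6 in GMP:MA9 replicate 2 (change 3.63, 95% interval 1.15 to 6.12, adjusted p = 0.125). Of 13 tested Hoxa cluster and cofactor genes 11 changes were negative (median -0.30), with none called or at an unadjusted p below 0.05. Hoxa9 changed by -0.30 (95% interval -1.03 to 0.43, adjusted p = 0.667) and Meis1 by 0.29 (-0.45 to 1.03, adjusted p = 0.679). Flt3, the receptor of early progenitors, was at 1.15 to 15.02 FPKM in STHSC:MA9 and 7.19 to 62.5 in GMP:MA9 (change -2.18, adjusted p = 0.126).

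The remaining lists had no called gene. Of 42 genes of DNA replication and mitosis 38 changes were positive (median 0.27), and of 75 cytosolic ribosomal protein genes 57 were positive (median 0.18), with none called in either. G1 cyclins and inhibitors (17 tested, median -0.02), apoptosis genes (26, median -0.01), Polycomb and DNA methylation genes (33, median -0.11) and ABC transporters (19, median -0.01) had no called member. Myeloid transcription factors (46 tested, 32 negative, median -0.29), cytokine receptors (27, median -0.31), adhesion genes (33, median -0.22), chemokines (18, median -0.12) and pattern receptors (38, median -0.05) had none. Nor had Fc receptors and complement (16, median -0.04), lysosomal genes (31, median -0.07), immediate early genes (27, median 0.21) or genes of the unfolded protein and oxidative stress responses (27, median 0.14). In the last of these, Prdx1, a peroxidase of hydrogen peroxide, had a change of -0.84 (adjusted p = 0.0308), below the fold for a call. Of 6 sex-linked genes only Xist was tested, at 136 to 163 FPKM in STHSC:MA9 and 197 to 253 in GMP:MA9, and it was not called.

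The same contrast was then made in normal cells, which share no sample with the leukaemias. Normal ST-HSCs and GMPs differed at 1264 of the same 12094 genes (10.5%), 653 higher and 611 lower in ST-HSCs, against 66 between the leukaemias. The median size of the change was 0.37 in normal cells and 0.25 in the leukaemias. The fits hold different numbers of samples, with 5 against 5 in normal cells and 3 against 6 in the leukaemias, so the counts are not on the same footing. Across genes the normal and leukaemia changes had a Pearson correlation of -0.13 and a Spearman correlation of -0.17, as a description, since genes are not independent. The 653 genes higher in normal ST-HSCs had a median leukaemia change of -0.18, and the 611 lower ones 0.12.

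Of the 66 genes called between the leukaemias, 11 were also called between the normal cells, which is 16.7% of the leukaemia calls and 0.870% of the normal calls. In 5 the direction was the same: Thbs1, Kap and 3 identifiers without a symbol, of which a pair hold identical values in all 49 samples and so are 1 measurement. In the other 6 it was opposite. Tcf4 changed by -3.17 in leukaemia and 1.12 in normal cells, Tle2 by -1.66 and 2.59, Calcrl by -1.42 and 1.57, Atp13a2 by -1.21 and 1.16, and Rasal3 by -1.005 and 1.28. F10 was the reverse case, at 1.08 in leukaemia and -1.30 in normal cells, where ST-HSCs had 4.68 to 11.2 FPKM and GMPs 16.1 to 22.2. The 6 were picked for calls in opposite directions, so a difference between their contrasts follows from that choice and is no separate evidence. In a single fit, the difference between the leukaemia and the normal contrast was called for all 6 (adjusted p at most 3.35e-06, the value for Tcf4). That test called 2066 of 12094 genes (17.1%), among them 41 of the 66.

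**Figure D5:**
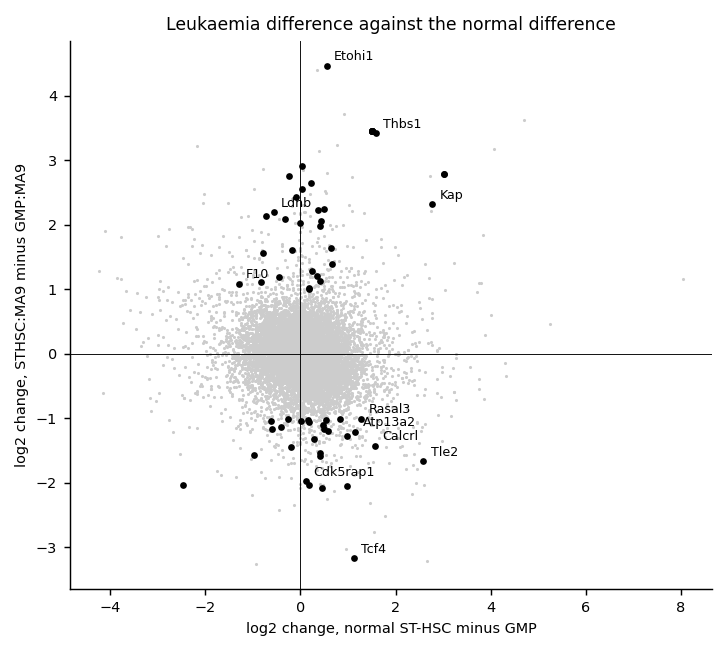
Each point is 1 gene, with the log2 change of normal ST-HSC minus GMP on the x axis and of STHSC:MA9 minus GMP:MA9 on the y axis. The normal changes span the wider range, and Tcf4, Tle2, Calcrl, Atp13a2 and Rasal3 sit at the lower right with F10 at the upper left.

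Kap, the kidney androgen-regulated protein, was called higher in both contrasts and moved with a split of the whole series. It was at 3.29, 5.56 and 3.46 FPKM in STHSC:MA9 and listed at 0 in all GMP:MA9 samples (adjusted p = 1.85e-06). Of all 38253 genes, exactly 4 were above 0 in each of the 17 samples of the LT-HSC, ST-HSC, MEP (megakaryocyte-erythrocyte progenitor) and STHSC:MA9 groups and listed at 0 in each of the other 32 samples. They were Kap, Umod, Pck1 and Mep1a, each known from kidney. Umod, Pck1 and Mep1a were at 0.06 to 0.32 FPKM in STHSC:MA9. A list of 20 kidney genes, chosen after the values of Kap were seen, had all 20 above 0 in some STHSC:MA9 sample and 10 listed at 0 in all GMP:MA9 samples. The same 17 samples had relative depths of 0.483 to 0.845, and the other 32 had 0.784 to 1.53. The labels name no batch, so whatever these 17 samples share cannot be told apart from ST-HSC origin in this comparison. Of the 12094 genes tested, 3 separated the 17 samples from the 32 without overlap, and all 3 were among the 66 called: Kap and the pair ENSMUSG00000099021 and ENSMUSG00000099250. That pair, with 1 set of values between them, was at 48.7 to 157 FPKM in the 17 samples and at 2.64 to 24.1 in the 32 (change 2.78). Any gene that separates the 17 from the 32 also separates STHSC:MA9 from GMP:MA9. The calls of these 3 are therefore no separate evidence about the split. The 7 identifiers with identical values named above were listed at 0 in every other leukaemia and every normal GMP sample. They were above 0 in 4 of 4 MEP samples (6.51 to 19.4 FPKM), in 2 of 5 LT-HSC and 2 of 5 ST-HSC samples, and in 1 sample each of MPP and CMP (at most 2.5). What the split contributes to the other called genes was not tested.

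Over the whole profile, 23.5% of the summed squared distance between the 9 samples (log2(FPKM + 1), 12094 genes) lay between the groups. By an exact permutation test over all 84 splits into 3 and 6 samples, p was 0.0357, and the smallest p this design allows is 0.0119. Leaving out 1 sample at a time gave shares of 19.3% to 29.0%. The share no longer passed without STHSC:MA9 replicate 2 (20.8%, exact p = 0.107) or 3 (19.3%, exact p = 0.143), nor without GMP:MA9 replicate 3, 5 or 6 (22.96%, 24.0% and 25.01%, exact p = 0.0536, 0.0714 and 0.0536). Without an STHSC:MA9 replicate, 28 splits remain and the smallest possible p is 0.0357.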

How the data were processed

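RNA of sorted leukaemia and normal cells was amplified (NuGEN Ovation), sequenced on the Illumina platform and quantified by the authors with RSEM against mm9, and the deposited values are FPKM per gene, normalised by the authors for transcript length and library size. The study's own tests ran on counts, which were not used here. FPKM of 49 labelled columns were read, and 19 further columns that match no sample label were not used. Genes averaging 1 FPKM or more across the 9 leukaemias were tested with limma 3.58.1 (R 4.3.3, trended empirical Bayes, two-sided, Benjamini-Hochberg) on log2(FPKM + 1), in one fit of 19 leukaemias, one of 30 normal samples and one for the difference between the contrasts. The code was checked on simulated data. Depth is known only as a ratio between samples, from 8589 genes with stepped values (93.6% of 1176 sample pairs fitted within 0.06 on the log2 scale), so no counting interval is given.

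Named genes were the 14 largest rises and the 14 largest falls among called genes with a symbol whose groups did not overlap, and from each of 38 gene lists its called members and up to 6 others by size of change, of which 1 list is not reported here; Mecom, Hoxa9, Meis1, Mll1 (Kmt2a) and Mllt3 were named in any case. The genes and lists were chosen with earlier results of these data known. The kidney list, the chromosome 2 stretch and 3 of the alternatives were added after seeing the data. The samples come from individual mice, but the labels do not assign them to experiments.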

Additional observations from a re-analysis of the deposited data

Results flagged for a closer look

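In GMP:MA9, 1 of 6 samples stood away from the rest by Dixon's 95% criterion for 2 called genes: Wnk4 was at 0.91 FPKM in replicate 6, with the others at 0.03 to 0.29, and Gm14420 at 0.34 in replicate 2, with the others at 0 to 0.10. Of the 35 groups examined, chance flags about 1 in 20.

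Among the 28 genes named for the largest changes, 23 had a change between the leukaemias that differed from that between normal ST-HSCs and GMPs, by the test of the difference itself (limma, adjusted over 12094 genes). The difference, leukaemia minus normal change on the log2(FPKM + 1) scale, was positive for the chromosome 2 zinc finger genes Etohi1 (3.92), Gm4631 (3.01), Gm14326 (2.88), Gm4724 (2.87), Gm14420 (2.03) and Gm14410 (1.56). It was also positive for Ldhb (2.76), 1700112E06Rik (2.53), Wnk4 (2.52), Gdf3 (2.42) and G530011O06Rik (1.63). It was negative for Tcf4 (-4.29), Tle2 (-4.25), 7SK (-3.02), Calcrl (-2.996), Bmyc (-2.54), Atp13a2 (-2.37), Lrrc8c (-2.26), Akr1e1 (-2.22), Cdk5rap1 (-2.09), Gm15036 (-1.9995), Gm14734 (-1.77) and Gm16091 (-1.62). Outside those 28, the difference was also called for F10 (2.39) and Rasal3 (-2.29). The 28 genes were picked for a large leukaemia change, which enters this difference.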

How the results depend on the processing

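The count of 66 calls changed with the processing. Without a fold threshold 135 genes passed, and with only the 2 groups compared in the fit 34 did. Correction for GC content and length gave 42, leaving out genes that share sequence or lack annotation gave 35, and the neutrophil list score as a covariate (added after seeing the data) gave 30. Replicate numbers do not pair these samples (deviations of same-numbered samples correlated at -0.10, -0.20 and -0.17), and the replicate block gave 35 calls, 31 of them among the 66, or 10 with the GC and length correction; in normal cells it gave 1279. Leaving out 1 sample gave 22 to 200 calls, and the distance share ranged from 19.3% to 29.0%. Without a fold threshold, 4528 genes passed between normal cells and 3825 in the test of the difference. A pseudocount of 0.1, median-ratio scaling, no filter on low values and the other alternatives run kept the count of leukaemia calls within 1.5 times. The cause of these shifts was not tested.

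Named genes that were not called changed sign in 19 settings. With the neutrophil score these were Ms4a3 (-0.46), Stfa2 (-0.20), Cd9 (-0.18), Gfi1 (-0.075), Cxcr2 (-0.00173), Slc2a3 (-0.26), Ptgs1 (-0.26), Chac1 (-0.19) and Meis1 (-0.10). Leaving out 1 sample, the log2 change ranged from -0.84 to 0.097 for Mllt3, -0.028 to 0.94 for Hba-a2, -1.08 to 0.016 for Hba-a1, -0.55 to 0.38 for Tfrc, -0.56 to 0.14 for Vim, -0.061 to 0.73 for Ccnd2 and -0.45 to 0.13 for Mll1. Tfrc was at 0.0067 with the block and 0.073 with block and GC correction.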
